A study of Mus musculus with 9 samples.

Results

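The genes described here are the cytosolic ribosomal protein genes of mouse splenic monocytes, 84 of the 55487 gene IDs in the count tables. They were chosen by name: protein-coding genes of GENCODE M21 with a symbol of Rpl or Rps and a digit, or Rplp0, Rplp1, Rplp2 or Rpsa, and a mean of at least 10 counts over the 9 libraries. Kinases named Rps6k and symbols with -ps were left out. Of 86 candidates, Rpl10l (mean count 1.33) and Rpl39l (3) fell below the threshold, and the members nearest to it from above were Rpl24 (42.9), Rps10 (200.2) and Rpl23a (255). By their names, 43 members belong to the large subunit, 31 to the small subunit and 3 (Rplp0, Rplp1 and Rplp2) to the stalk. A further 5 (Rpl3l, Rpl22l1, Rpl36al, Rps27l and Rps27rt) were classed here as paralogs, and 2 (Rpl7l1 and Rps19bp1) as associated proteins rather than subunits. All 84 passed the filter on low counts and were tested.

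Ribosomal proteins coat the ribosomal RNA of the large and small subunits, and nearly every subunit carries 1 copy of each, so their genes are expressed at similar and high levels in most cells. Their mRNAs are the classical members of the 5′ terminal oligopyrimidine (TOP) class: transcription starts at a C followed by a run of pyrimidines, through which mTORC1 and LARP1 set how much of the mRNA is translated and kept. The genes have many processed pseudogenes in mammalian genomes. In the monocyte lineage, demand for ribosomes is highest in dividing progenitors, while mature monocytes divide little.

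The first group, KO Ly6Clo, was Ly6Clo monocytes of C57BL/6 mice with the genotype Cebpa +37-/-, a homozygous loss of the +37 element of Cebpa, a known myeloid enhancer, for which the labels name no Cre. The second was Ly6Clo monocytes of WT C57BL/6 mice and the third Ly6Chi monocytes of WT C57BL/6 mice. Ly6Chi monocytes are the classical, inflammatory subset, and Ly6Clo monocytes the nonclassical, patrolling one. Cells were sorted from spleen, untreated, at 40000 to 50000 cells per library, with 3 libraries in each group. The 9 libraries include none of KO Ly6Chi monocytes. Whether replicates came from separate animals is not in the labels, and the p-values therefore speak only of the variation among these 9 libraries, part of which could be technical.

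Each library held between 48.1 and 173.7 M counts (M is the unit of CPM), and the members took 474932 to 1215247 of them. WT Ly6Clo replicate 2 (173.7 M) and KO Ly6Clo replicate 2 (149.8 M) were the deepest, and the other 7 libraries had 48.1 to 60.5 M. Cebpa stood at 2.74 to 4.04 CPM in KO Ly6Clo, against 17.7 to 19.2 CPM in WT Ly6Clo and 31.5 to 51.6 CPM in WT Ly6Chi. Ly6c2, a defining gene of the Ly6Chi subset, averaged 2.94 ± 0.855 CPM in KO Ly6Clo, 3.93 ± 1.58 CPM in WT Ly6Clo and 946 ± 104 CPM in WT Ly6Chi (SD, n = 3), as the sort labels say. Csf1r, the receptor that marks monocytes and macrophages, averaged 5006 ± 536, 5547 ± 711 and 3112 ± 978 CPM in that order. WT Ly6Chi replicate 3 stood apart by sex-linked genes, with Xist at 30.04 CPM and Ddx3y at 0, while the other 8 libraries had at most 0.0417 CPM of Xist and 69.4 to 142.1 CPM of Ddx3y. CPM below are counts per M on library sizes scaled by TMM, a factor for composition, and TPM are per length. Both are relative, so the amount of RNA per cell was not measured.

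RefSeq (GRCm38.p6) lists a start for 64 of the 84 members. The 15 bases on either side of it are shown for the members with the clearest differences between WT Ly6Clo and WT Ly6Chi (Rps9, Rpl10, Rps18, Rpl28 and Rpl14; Rpl32 has no entry) and for the 4 members whose mean was higher in WT Ly6Clo, because the TOP class is defined by these bases. Capitals mark each unbroken run of C and T that holds a C followed by at least 4 further pyrimidines within 10 bases of the listed start, on the strand of the gene.
Rps9: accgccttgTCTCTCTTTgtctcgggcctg
Rpl10: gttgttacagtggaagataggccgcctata
Rps18: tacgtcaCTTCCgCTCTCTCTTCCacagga
Rpl28: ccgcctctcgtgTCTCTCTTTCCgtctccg
Rpl14: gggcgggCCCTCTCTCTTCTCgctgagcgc
Rpl3l: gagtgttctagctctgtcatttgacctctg
Rps10: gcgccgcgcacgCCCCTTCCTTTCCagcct
Rps19bp1: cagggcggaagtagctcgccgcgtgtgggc
Rpl7l1: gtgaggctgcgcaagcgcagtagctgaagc
These windows lie at chr7:3704026-3704055, chrX:74270801-74270830, chr7:4792950-4792979, chr9:120571502-120571531 and chr17:24727811-24727840 on the plus strand, the last at the upstream of 2 listed starts, and at chr17:33955651-33955680, chr17:27635230-27635259, chr15:80264292-80264321 and chr17:46782642-46782671 on the minus strand. Of the 5 members with clear differences shown, Rps9, Rps18, Rpl28 and Rpl14 had such a run and Rpl10 had none at its listed start. Among the 4 with a higher mean in WT Ly6Clo, Rps10 had one and Rpl3l, Rps19bp1 and Rpl7l1 had none. Such a run was found in 33 of the 64 members with a listed start, 51.6%, and in 29.6% of protein-coding genes. The windows shown were chosen by their fold changes, so they cannot show whether the run goes with the direction, which was not tested.

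Mean levels over the 9 libraries spread from 1.77 TPM for Rpl24 to 916 TPM for Rplp0, with a median of 155 TPM and quartiles of 70.0 and 299.8 TPM. Among the highest were Rplp0, the base of the stalk on which elongation factors act, Rpl36, Rpl4, Rps3a1 and Rplp1. Rplp0 had 764, 975 and 1049.8 TPM in the KO Ly6Clo libraries, 808, 859 and 800.0 TPM in the WT Ly6Clo libraries and 916, 1049.7 and 1022 TPM in the WT Ly6Chi libraries, so WT Ly6Clo lay below WT Ly6Chi in TPM and KO Ly6Clo overlapped both. Rpl36, a short gene of the large subunit, had 914, 518 and 1082 TPM in the KO Ly6Clo libraries, 700.2, 441 and 999 TPM in the WT Ly6Clo libraries and 1109, 1139.7 and 1069 TPM in the WT Ly6Chi libraries. Replicate 2 was the lowest library of both Ly6Clo groups for Rpl36, and every WT Ly6Chi library but replicate 3 lay above every Ly6Clo library. Of the others, Rpl4 averaged 735 ± 49.2 TPM in KO Ly6Clo, 609 ± 100.1 in WT Ly6Clo and 827 ± 72.3 in WT Ly6Chi, and Rplp1, which binds Rplp0 as a dimer with Rplp2, averaged 709.5 ± 85.8 TPM in KO Ly6Clo, 516 ± 144 in WT Ly6Clo and 749 ± 95.4 in WT Ly6Chi (SD, n = 3). Rplp2 itself averaged 149 ± 30.2 TPM in KO Ly6Clo, 114 ± 35.9 in WT Ly6Clo and 163 ± 14.1 in WT Ly6Chi. Rpsa, a small-subunit protein also known as the laminin receptor, averaged 258 ± 49.1 TPM in KO Ly6Clo, 192 ± 25.9 in WT Ly6Clo and 254 ± 24.3 in WT Ly6Chi.

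The lowest members by TPM were Rpl24 (1.77), Rps10 (3.18), Rpl13a (6.55) and Rpl36al (9.06). Rpl24, Rps10 and Rpl13a each encode a ribosomal subunit protein. Their exonic bases overlap other annotated genes: 47.0% for Rpl24, 28.7% for Rps10, where the overlap includes the readthrough gene RPS10-NUDT3, and 35.4% for Rpl13a. Rpl23a (14.5 TPM) overlaps Tlcd1 and a small nucleolar RNA over 62.3% of its exonic bases. Overlap was not particular to low members: the 12 members with 20% or more of their exonic bases overlapped had means of 1.77 to 627 TPM. Rpl35, for example, was overlapped over 66.2% at 151 TPM. Rpl24 and Rpl23a also shared 80.1% and 80.0% of the 100-base stretches of their coding transcripts with other genes. The sources used here do not give how the authors counted reads of more than 1 gene, so the levels of Rpl24, Rps10, Rpl13a and Rpl23a are uncertain. The part of overlap in their low levels was not tested. Rpl24 had 0.854, 0.505 and 0.667 CPM in KO Ly6Clo, against 0.165, 0.563 and 0.267 CPM in the WT Ly6Clo libraries and 0.948, 0.688 and 0.551 CPM in the WT Ly6Chi libraries.

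**Figure D1:**
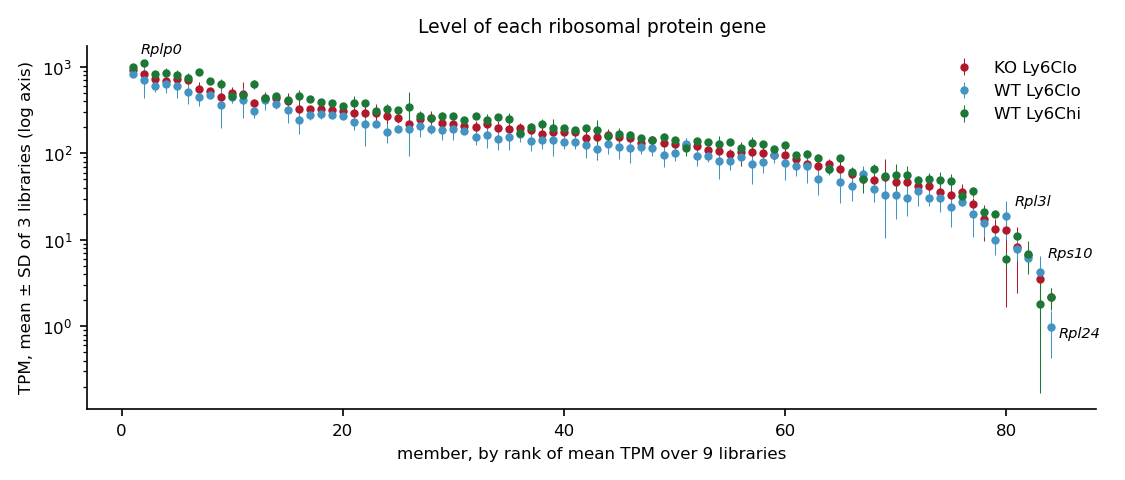
Mean TPM of each of the 84 ribosomal protein genes (vertical log axis, mean ± SD of 3 libraries) in KO Ly6Clo, WT Ly6Clo and WT Ly6Chi monocytes, with genes in order of their mean over 9 libraries. The levels fall from 916 TPM for Rplp0 to 1.77 TPM for Rpl24. The WT Ly6Chi means lie above the WT Ly6Clo means for most members, with Rpl3l, Rps10, Rpl7l1 and Rps19bp1 the other way round.

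Summed over the 84 members, ribosomal protein genes took the largest share of counts in WT Ly6Chi. The share was 1.04, 0.811 and 1.06% in the KO Ly6Clo libraries, 0.873, 0.633 and 0.912% in the WT Ly6Clo libraries and 1.42, 1.21 and 1.12% in WT Ly6Chi. Every WT Ly6Chi library thus lay above every Ly6Clo library of either genotype, while KO Ly6Clo and WT Ly6Clo overlapped. The means were 0.971 ± 0.138, 0.806 ± 0.151 and 1.25 ± 0.156% in the same order of groups (SD, n = 3 each). In TPM the members summed to 1.93, 1.56 and 2.04% of the total in KO Ly6Clo, 1.61, 1.18 and 1.77% in WT Ly6Clo and 2.33, 2.16 and 2.06% in WT Ly6Chi, and again no WT Ly6Chi library fell among the others. The 2 deepest libraries had the lowest share of their groups. They also had the lowest share of counts from the mitochondrial genome in their groups, which was 0.196, 0.129 and 0.196% in KO Ly6Clo, 0.116, 0.0700 and 0.109% in WT Ly6Clo and 0.351, 0.155 and 0.194% in WT Ly6Chi. By that share KO Ly6Clo overlapped WT Ly6Chi and both lay above WT Ly6Clo. The part of depth or of RNA composition in the ribosomal share was not tested, and in sorted bulk samples fewer cells of a kind and less RNA per cell cannot be told apart.

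**Figure D2:**
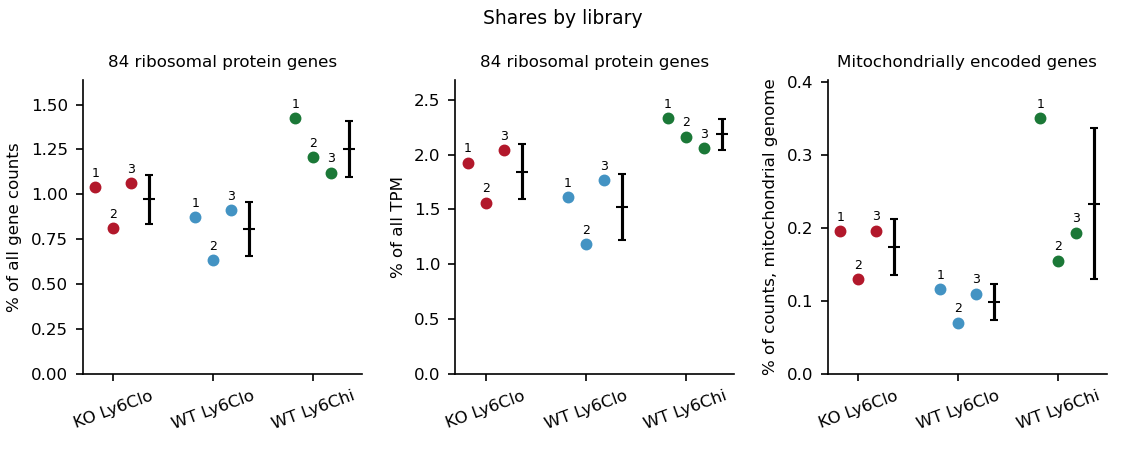
Percent of all gene counts (left) and of all TPM (middle) held by the 84 ribosomal protein genes, and percent of counts from mitochondrially encoded genes (right), by library. Points are libraries with their replicate numbers and black bars are the mean ± SD of 3; the WT Ly6Chi libraries hold 1.12 to 1.42% of counts, above every Ly6Clo library, and replicate 2 is the lowest of both Ly6Clo groups.

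Ribosomal protein genes stood lower in WT Ly6Clo than in WT Ly6Chi monocytes almost as a block. Of the 84 members, 80 had a negative log2 fold change, with a median of -0.55 and quartiles of -0.76 and -0.42, beside a median of -0.004 over the 18341 genes tested, of which 50.2% were negative. Under the quasi-likelihood test of edgeR, with p-values adjusted by Benjamini and Hochberg's method over all genes, 7 members fell and none rose. Of all genes tested, 1.62% were called lower in WT Ly6Clo. In 63 of the 84 members every WT Ly6Clo library lay below every WT Ly6Chi library, beside 14.7% of all genes tested. At an unadjusted p under 0.05 stood 56 members, 55 of them lower in WT Ly6Clo, which is 66.7% of the members beside 18.2% of all genes. Without the 2 deepest libraries the median was -0.45, with 78 of 84 negative and no member called. Without WT Ly6Chi replicate 3, which stands apart by its sex-linked genes, it was -0.59 and Rps9 alone was called. The libraries carry numbers from 2 separate runs, whose meaning the labels do not state, and within them the median was -0.72 (2 WT Ly6Clo against 1 WT Ly6Chi library) and -0.32 (1 against 2), with 81 and 73 members negative.

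Small-subunit members made up 3 of the 7 called, of which Rps9 and Rps18 are given here with their GRCm38 coordinates. Rps9 (ENSMUSG00000006333, chromosome 7, 3703993 to 3706897), a protein of the small subunit that bears on translational accuracy, had 322, 266 and 289 CPM in the KO Ly6Clo libraries, 285, 227 and 251 CPM in the WT Ly6Clo libraries and 581, 507 and 468 CPM in the WT Ly6Chi libraries. WT Ly6Chi stood well above both Ly6Clo groups. The log2 fold change in WT Ly6Clo against WT Ly6Chi was -1.03 ± 0.16 (SE), a 2.04-fold lower level, with edgeR's adjusted p = 0.011. Its share of the members' counts was 3.03% ± 0.284 in WT Ly6Clo and 4.28% ± 0.289 in WT Ly6Chi, so its weight within the members was lower too. Rps18 (ENSMUSG00000008668, chromosome 17, 33951999 to 33956001), a protein of the head of the small subunit, had 153, 119 and 171 CPM in the KO Ly6Clo libraries, 126, 104 and 139 CPM in the WT Ly6Clo libraries and 216, 224 and 221 CPM in the WT Ly6Chi libraries. The WT Ly6Chi libraries sat within a narrow band above the rest, and WT Ly6Clo was 1.79-fold lower (log2 -0.84 ± 0.18, edgeR's adjusted p = 0.0391).

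From the large subunit, 4 members were called. Rpl32 (ENSMUSG00000057841, chromosome 6, 115805505 to 115808747) had 191, 134 and 165 CPM in the KO Ly6Clo libraries, 148, 115 and 161 CPM in the WT Ly6Clo libraries and 291, 273 and 256 CPM in the WT Ly6Chi libraries. No Ly6Clo library of either genotype reached the lowest WT Ly6Chi library, and WT Ly6Clo was 1.93-fold lower (log2 -0.95 ± 0.19, edgeR's adjusted p = 0.0274). Rpl10 (ENSMUSG00000008682, chromosome X, 74270812 to 74273135), which joins the large subunit late, in the cytoplasm, and is needed for the subunits to pair, had 194, 212 and 203 CPM in the KO Ly6Clo libraries, 181, 172 and 197 CPM in the WT Ly6Clo libraries and 286, 291 and 289.6 CPM in the WT Ly6Chi libraries. Its WT Ly6Chi libraries agreed closely, and WT Ly6Clo was 1.57-fold lower (log2 -0.65 ± 0.13, edgeR's adjusted p = 0.0276). Rpl28 (ENSMUSG00000030432, chromosome 7, 4792874 to 4795066), a protein that budding yeast lacks, had 54.0, 49.2 and 62.3 CPM in the KO Ly6Clo libraries, 49.0, 40.1 and 54.7 CPM in the WT Ly6Clo libraries and 84.2, 78.3 and 80.8 CPM in the WT Ly6Chi libraries. WT Ly6Clo was 1.69-fold below WT Ly6Chi with no overlap (log2 -0.76 ± 0.17, edgeR's adjusted p = 0.0471). Rpl14 (ENSMUSG00000025794, chromosome 9, 120571444 to 120574654) had 143, 109 and 152 CPM in the KO Ly6Clo libraries, 106, 71.8 and 101 CPM in the WT Ly6Clo libraries and 202, 159.8 and 162 CPM in the WT Ly6Chi libraries. The WT Ly6Clo libraries were the lowest of the 9, below those of KO Ly6Clo as well, and stood 1.88-fold under WT Ly6Chi (log2 -0.91 ± 0.21, edgeR's adjusted p = 0.0498).

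These 7 calls depend on all libraries being present. With any 1 of the 6 libraries compared left out, Rps9 alone was called, except without WT Ly6Clo replicate 3, where no member was. Leaving out a KO Ly6Clo library, which enters only through the shared filter, scaling and spread, gave 4 to 6 calls. DESeq2 called 30 members, all lower in WT Ly6Clo and the 7 among them, beside 5.29% of all genes it tested called lower.

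**Figure D3:**
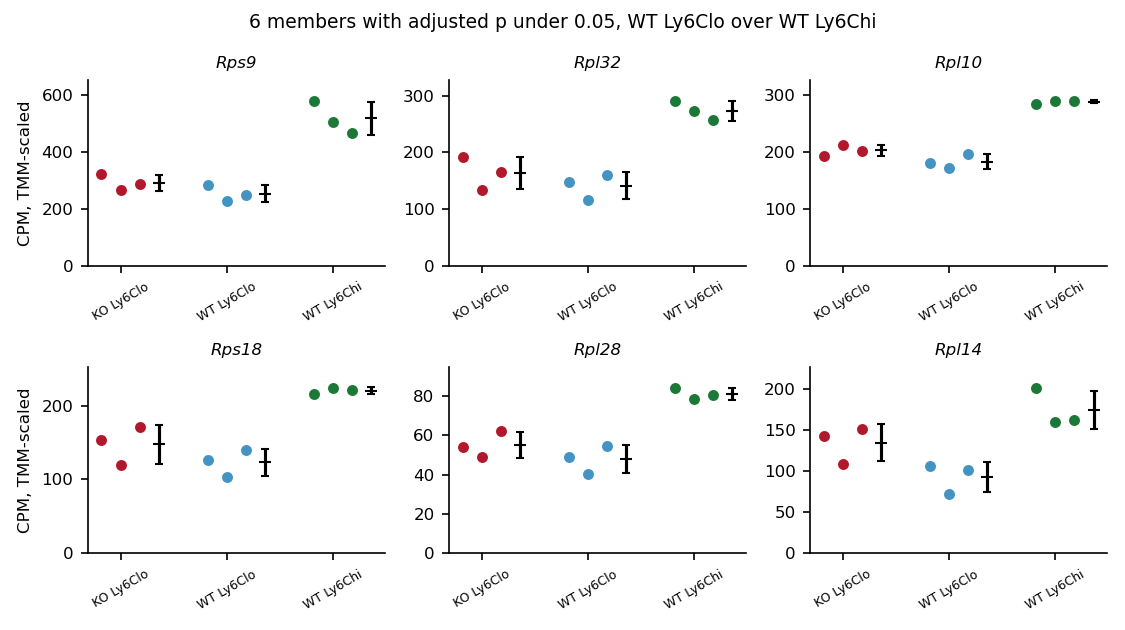
CPM on TMM-scaled library sizes of 6 of the 7 members called between WT Ly6Clo and WT Ly6Chi, in KO Ly6Clo, WT Ly6Clo and WT Ly6Chi; points are libraries in the order of their replicate numbers and black bars the mean ± SD of 3. In each of the 6 panels every WT Ly6Chi library lies above every Ly6Clo library of either genotype, and Rpl14 also separates KO Ly6Clo from WT Ly6Clo.

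Called or not, the members mostly shared the direction. All 43 large-subunit members had a negative log2 fold change in WT Ly6Clo against WT Ly6Chi, with a median of -0.61, and 36 of them had libraries that did not overlap. Of 31 small-subunit members 30 were negative, with a median of -0.52, and 25 did not overlap. Both counts include the called members, and 14.7% of all genes tested were lower in WT Ly6Clo without overlap. The stalk members had -0.29 (Rplp0), -0.56 (Rplp1) and -0.54 (Rplp2), none called. Among the negative fold changes without a call, the largest were those of Rpl24 (-1.12 ± 0.66 on the log2 scale, SE), Rpl23a (-1.06 ± 0.39) and Rpl22 (-1.03 ± 0.32), with edgeR's adjusted p of 0.423, 0.193 and 0.132. Rpl22, a large-subunit protein that mouse T cell development requires, had 35.2, 21.9 and 29.6 CPM in the KO Ly6Clo libraries, 24.6, 13.1 and 29.1 CPM in the WT Ly6Clo libraries and 55.9, 40.4 and 40.4 CPM in the WT Ly6Chi libraries, so its WT Ly6Clo libraries lay below its WT Ly6Chi libraries although its test missed the threshold.

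A few members did not share the direction. Rpl3l, the paralog of Rpl3 that striated muscle uses, had 13.0, 2.02 and 4.62 CPM in the KO Ly6Clo libraries, 12.2, 4.94 and 12.7 CPM in the WT Ly6Clo libraries and 2.45, 3.69 and 3.55 CPM in the WT Ly6Chi libraries. Its WT Ly6Clo libraries all exceeded its WT Ly6Chi libraries, yet it was not called (1.62 ± 0.66 on the log2 scale, edgeR's adjusted p = 0.24). Rps10 had 4.50, 1.73 and 1.28 CPM in the KO Ly6Clo libraries, 3.78, 4.73 and 1.11 CPM in the WT Ly6Clo libraries and 2.72, 0.501 and 0.817 CPM in the WT Ly6Chi libraries. Libraries of all groups overlapped for Rps10 (1.25 ± 0.82, adjusted p = 0.479 by edgeR). Rps19bp1, which binds Rps19 and the deacetylase SIRT1, and Rpl7l1, an Rpl7-like protein, had log2 fold changes of 0.19 ± 0.30 and 0.17 ± 0.23 (edgeR's adjusted p = 0.808 and 0.761). Rpl3l was classed here as a paralog and Rps19bp1 and Rpl7l1 as associated proteins, and each of the 3 shares under 10% of its 100-base stretches with other genes.

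**Figure D4:**
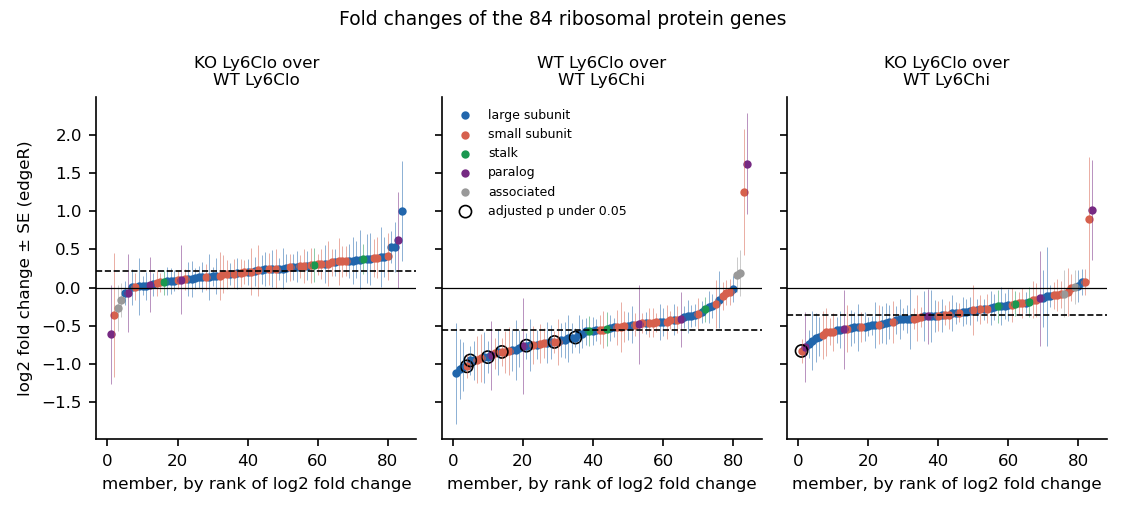
Log2 fold change ± SE (edgeR) of each ribosomal protein gene in 3 comparisons, in order of size, coloured by the part of the ribosome; circles mark an adjusted p under 0.05 and the dashed line is the members' median. The medians are 0.22 (KO Ly6Clo over WT Ly6Clo, no circle), -0.55 (WT Ly6Clo over WT Ly6Chi, 7 circles) and -0.36 (KO Ly6Clo over WT Ly6Chi, 1 circle).

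KO Ly6Clo monocytes also stood below WT Ly6Chi monocytes, by less. The median log2 fold change was -0.36 (quartiles -0.49 and -0.20), beside 0.04 over all genes tested, and 77 of 84 members were negative, where 47.4% of all genes were. Only Rps9 fell by edgeR's test (-0.83 ± 0.16 on the log2 scale, a 1.78-fold lower level, adjusted p = 0.0207), beside 2.46% of all genes called lower in KO Ly6Clo. In 43 members every KO Ly6Clo library lay below every WT Ly6Chi library, beside 11.7% of all genes. At an unadjusted p under 0.05 by edgeR were 17 members, which is 20.2% of the members beside 16.9% of all genes. DESeq2 called 11 members, all lower in KO Ly6Clo, beside 5.18% of all genes it tested called lower. This comparison shares its WT Ly6Chi libraries with the one above. The Rps9 call was lost without WT Ly6Chi replicate 1 or 2, without KO Ly6Clo replicate 2 or 3, and without the 2 deepest libraries together, when the median was -0.26. Without WT Ly6Chi replicate 3 the median was -0.36 and Rps9 was still called. Within the 2 runs of library numbers the median was -0.48 (2 KO Ly6Clo against 1 WT Ly6Chi library) and -0.15 (1 against 2).

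Among the other members of that comparison, Rps27l, a paralog of Rps27 that p53 induces, had 77.2, 33.1 and 50.4 CPM in the KO Ly6Clo libraries, 75.3, 29.6 and 44.2 CPM in the WT Ly6Clo libraries and 142, 60.9 and 72.0 CPM in the WT Ly6Chi libraries. Its spread within groups was wide and the groups overlapped (-0.78 ± 0.45 in KO Ly6Clo against WT Ly6Chi, edgeR's adjusted p = 0.455). Rpl32 had -0.74 ± 0.19 and Rpl23a -0.70 ± 0.39, neither called (adjusted p = 0.0611 and 0.428 by edgeR). At the other end, Rpl3l had 1.01 ± 0.65 and Rps10 0.89 ± 0.82, with wide errors, and Rps19 and Rpl5 lay near 0 (0.08 ± 0.17 and 0.07 ± 0.17). Rps19, the gene most often mutated in Diamond-Blackfan anaemia, had 279, 253 and 316 CPM in the KO Ly6Clo libraries, 255, 217 and 298 CPM in the WT Ly6Clo libraries and 295, 263 and 246 CPM in the WT Ly6Chi libraries, overlapping throughout. Rpl5, which with Rpl11 carries ribosomal RNA into the large subunit and can bind MDM2, had 77.3, 85.5 and 103 CPM in the KO Ly6Clo libraries, 92.0, 80.3 and 76.8 CPM in the WT Ly6Clo libraries and 92.3, 86.7 and 73.7 CPM in the WT Ly6Chi libraries, with no separation of any group.

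Between the genotypes, KO Ly6Clo against WT Ly6Clo, no ribosomal protein gene changed by the test, although most leaned upward. Of 84 members, 78 had a positive log2 fold change, with a median of 0.22 and quartiles of 0.11 and 0.32, beside a median of 0.03 over all genes tested, of which 52.6% were positive. None was called by edgeR, DESeq2 or limma-voom, where 0.0709% of all genes tested were called by edgeR in either direction. DESeq2 called 1.52% of the genes it tested and limma-voom 0.0872%. At an unadjusted p under 0.05 were 1 member by edgeR, 2 by DESeq2 and 1 by limma-voom, beside 6.16%, 8.29% and 7.76% of the genes each tested. In 7 members (Rpl6, Rpl14, Rpl15, Rpl29, Rps3 and Rps20 among them) every KO Ly6Clo library lay above every WT Ly6Clo library, which is 8.33% of the members beside 5.22% of all genes. Without WT Ly6Clo replicate 2, the deepest library, the median was 0.10 with 67 members positive. Without both deepest libraries it was 0.19 with 78 positive. In the 2 runs of library numbers it was 0.24 (2 libraries against 2) and 0.17 (1 against 1). Between single libraries, the median log2 ratio of CPM was -0.10 for KO Ly6Clo replicate 2 against WT Ly6Clo replicate 1. Against WT Ly6Clo replicate 3 the same library had -0.20. Every other pair of KO Ly6Clo and WT Ly6Clo libraries was positive, from 0.076 to 0.65.

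Rpl14 was the member with the smallest p between the genotypes. It had 143, 109 and 152 CPM in KO Ly6Clo, against 106, 71.8 and 101 CPM in WT Ly6Clo, with no overlap, and a log2 fold change of 0.54 ± 0.21 (edgeR's adjusted p = 0.735). Rpl39, a small protein of the exit tunnel, had 23.8, 14.3 and 23.3 CPM in KO Ly6Clo, against 13.2, 9.77 and 19.3 CPM in WT Ly6Clo and overlapped (0.54 ± 0.33, adjusted p = 0.978 by edgeR). The largest positive values belonged to the sparsely counted Rpl24 (1.01 ± 0.66) and Rps27rt (0.62 ± 0.63), an intronless copy of Rps27, and both overlapped between the genotypes. Rpl24 and Rps27rt shared 80.1% and 89.5% of their 100-base stretches with other genes, so both are uncertain as single genes. The lowest values were those of Rpl3l (-0.61 ± 0.65), Rps10 (-0.36 ± 0.81), Rps19bp1 (-0.27 ± 0.30) and Rpl7l1 (-0.16 ± 0.23), all overlapping and with edgeR's adjusted p of 0.9998. The stalk members Rplp0, Rplp1 and Rplp2 had 0.07, 0.37 and 0.30. A miss of the threshold does not show equal levels: the SE of single members here ran near the size of the median difference.

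Ordered by mean CPM, 74 of 84 members stood highest in WT Ly6Chi, then KO Ly6Clo, then WT Ly6Clo, an order found in 20.9% of all genes tested. KO Ly6Clo lay above WT Ly6Clo without overlap in 7 of 84 members (8.33%), beside 5.22% of all genes tested. It lay below WT Ly6Chi without overlap in 43 of 84, beside 11.7% of all genes. In 4 members KO Ly6Clo was highest and WT Ly6Clo lowest, and 3 had WT Ly6Clo highest and WT Ly6Chi lowest. Across the 9 libraries, log2 CPM of a member correlated with the median of the other members at a median Pearson r of 0.89, above 0.8 for 57 members and below 0.5 for 10. These values describe libraries that share depth and composition, and carry no test. Closest to the common pattern were Rpl41, Rps26, Rpl31, Rpl23 and Rpl27 (r of 0.97 to 0.98), and farthest were Rps10 (-0.57), Rpl7l1 (-0.37), Rpl3l (-0.32) and Rps19bp1 (-0.11).

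Shares of the members' own counts describe the makeup of the ribosomal pool, with no test. Rplp0 took 4.97% ± 0.983 of the members' counts in KO Ly6Clo, 5.39% ± 1.25 in WT Ly6Clo and 4.50% ± 0.530 in WT Ly6Chi (SD, n = 3). Rps19 took 2.98% ± 0.126, 3.04% ± 0.164 and 2.21% ± 0.111 in that order of groups, with the higher means in both Ly6Clo groups. The share of Rpl13 was 4.36% ± 0.417 in KO Ly6Clo and 4.86% ± 0.747 in WT Ly6Clo, and that of Rpsa was 2.65% ± 0.650 and 2.36% ± 0.168. For Rpl7l1 the share was 1.401% ± 0.296 in KO Ly6Clo, 1.80% ± 0.538 in WT Ly6Clo and 1.09% ± 0.171 in WT Ly6Chi.

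Paralog use was compared as the ratio of TPM within a library, where scaling cancels. Rpl7l1, classed above as an associated protein, was set beside Rpl7 because it is Rpl7-like. Rpl3l stood at 9.52, 1.29 and 2.67% of Rpl3 in KO Ly6Clo, 8.42, 3.48 and 8.49% in WT Ly6Clo and 1.30, 1.81 and 2.01% in WT Ly6Chi, and WT Ly6Clo exceeded WT Ly6Chi in every library. Rpl7l1 stood at 66.0, 58.3 and 46.9% of Rpl7 in KO Ly6Clo, 59.8, 98.8 and 53.5% in WT Ly6Clo and 50.4, 35.4 and 42.4% in WT Ly6Chi, again higher in every WT Ly6Clo than in every WT Ly6Chi library. With 3 libraries against 3, an exact permutation test cannot go below p = 0.1, so these ratios carry no test. Rpl22l1, the paralog that rises when Rpl22 is lost in mice, was at 40.4, 43.4 and 75.1% of Rpl22 in KO Ly6Clo, 51.0, 95.6 and 67.4% in WT Ly6Clo and 37.3, 41.6 and 54.2% in WT Ly6Chi. The groups overlapped for that pair, as they did for Rpl36al with Rpl36a and Rps27l with Rps27. Rps4l, annotated in mouse as a transcribed pseudogene and no member, was at 9.59, 16.7 and 15.3% of Rps4x in KO Ly6Clo, 47.2, 29.2 and 31.5% in WT Ly6Clo and 30.3, 27.6 and 21.8% in WT Ly6Chi, lower in KO Ly6Clo than in either other group without overlap. Rpl10l and Rpl39l, paralogs known from testis, had 12 and 27 counts over the 9 libraries.

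Other genes of translation were read beside the members, from lists chosen with earlier results of these data known. In WT Ly6Clo against WT Ly6Chi, the ribosomal proteins outside the naming rule (such as Fau, made as a fusion with a ubiquitin-like protein, and Rack1, a scaffold on the small subunit) were all negative (3 of 3, median -0.22). Of 6 elongation factors 4 were negative, with a median of -0.33. Eef1a1, which brings aminoacyl-tRNA to the ribosome, averaged 813 ± 107 CPM in WT Ly6Clo and 1108 ± 60.1 CPM in WT Ly6Chi, and Eef2, which moves the ribosome along, 454 ± 24.1 and 616 ± 94.5 CPM (SD, n = 3), with no overlap for either. Among 12 other mRNAs of the TOP class 11 were negative, with a median of -0.44. Nop53, a ribosome biogenesis factor, averaged 190.2 ± 23.0 CPM in WT Ly6Clo and 291 ± 46.1 CPM in WT Ly6Chi, and Tpt1, the translationally controlled tumour protein, 159.9 ± 12.5 and 209 ± 14.3 CPM. None of these genes was called by edgeR. At an unadjusted p under 0.05 were 2 of the elongation factors and 8 of the other TOP mRNAs, beside 18.2% of all genes tested.

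Genes that build ribosomes or start translation did not share the direction. Of 55 ribosome biogenesis genes, 40 were positive in WT Ly6Clo against WT Ly6Chi (median 0.19, none called). At an unadjusted p under 0.05 by edgeR were 8 of the 55, beside 18.2% of all genes tested. In 18 of the 55 every WT Ly6Clo library lay above every WT Ly6Chi library, beside 13.6% of all genes tested. In 5 every WT Ly6Clo library lay below, beside 14.7% of all genes tested. Ncl, the nucleolar protein nucleolin, averaged 219 ± 32.6 CPM in WT Ly6Clo and 158 ± 16.1 CPM in WT Ly6Chi, and Rrp1, a nucleolar protein of ribosomal RNA processing, 225 ± 16.7 and 201 ± 17.5 CPM. Of 22 initiation factors outside the TOP list 12 were positive (median 0.07, none called), and of 18 genes of the mTOR and MYC pathways that govern ribosomal protein synthesis 13 were positive (median 0.22, none called). Among 77 mitochondrial ribosomal protein genes tested 54 were negative, with a median of -0.17 and none called. In KO Ly6Clo against WT Ly6Clo the medians were 0.15, 0.24 and 0.18 for the ribosomal proteins outside the rule, the elongation factors and the other TOP mRNAs. They were 0.01 for biogenesis, 0.04 for initiation factors and -0.04 for mitochondrial ribosomal proteins, with no gene of any of these lists called by edgeR.

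**Figure D5:**
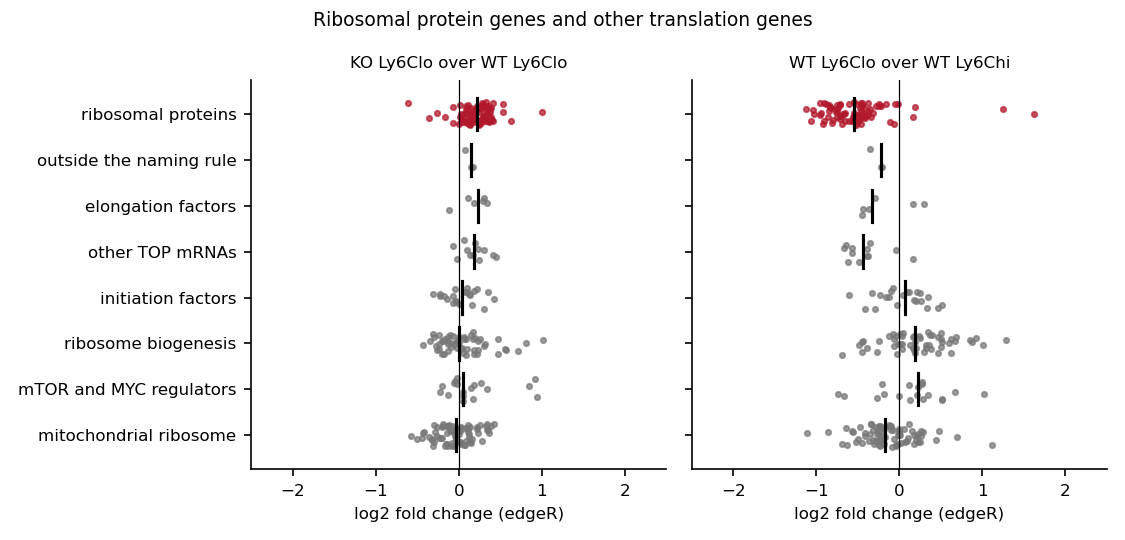
Log2 fold changes (edgeR) of ribosomal protein genes (red) and 7 other gene groups of translation (grey) in KO Ly6Clo over WT Ly6Clo and WT Ly6Clo over WT Ly6Chi; each point is a gene, shifted at random up or down for legibility, and black bars are medians. In WT Ly6Clo over WT Ly6Chi the medians are -0.55 for ribosomal proteins, -0.33 for elongation factors and -0.44 for other TOP mRNAs, against 0.07 for initiation factors and 0.19 for biogenesis.

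Ribosomal protein genes share sequence with processed copies elsewhere in the genome, so the differences were also read by how unique each gene is. Taking stretches of 100 bases of the annotated coding transcripts, 16 members shared under 10% of them with other genes and overlapped no other feature. These had a median log2 fold change of -0.71 in WT Ly6Clo against WT Ly6Chi (13 of 16 negative), -0.39 in KO Ly6Clo against WT Ly6Chi and 0.15 in KO Ly6Clo against WT Ly6Clo. The 21 members that shared 50% or more had medians of -0.65, -0.36 and 0.24 in the same order. Rps9 shared 8.29%, while Rpl10 shared 68.4%, Rps18 47.3%, Rpl14 36.9% and Rpl28 29.0%, so the last 4 are less certain as single genes. Rpl32 shared 4.75%, but Cand2 and a small nucleolar RNA overlap 20.0% of its exonic bases. Rpl5 shared 82.7% and was overlapped over 26.7% of its exonic bases, so it is less certain too. Pseudogenes with -ps symbols leaned the same way as the members: of 145 tested, 142 were negative in WT Ly6Clo against WT Ly6Chi (median -0.92) and 130 positive in KO Ly6Clo against WT Ly6Clo (median 0.43). None was called in either comparison, and whether these reads come from the members was not tested.

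Around the listed starts, the run of pyrimidines was found in 33 of 64 members, 51.6%, against 29.6% of 16513 protein-coding genes searched in the same way. The 33 members with it had a median log2 fold change of -0.71 in WT Ly6Clo against WT Ly6Chi and the 31 without it -0.52. In KO Ly6Clo against WT Ly6Clo the medians were 0.25 and 0.19. Other letters were searched on both strands from 250 bases before to 50 after the start. CCGGAAG, letters that ETS factors such as GABPA bind, occurred in 39.1% of members and 13.4% of all protein-coding genes, and AAGATGG, part of the YY1 motif, in 15.6% and 7.26%. TATAAA occurred in 10.9% and 14.3%. TTGCGCAA, the palindrome that C/EBP proteins bind, was in none of the 64 and in 0.260% of all. CCGGAAG ends in the letters AAG with which AAGATGG begins, so those matches can overlap. A match describes the letters of a window only, and so does the lack of one.

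Markers of other cell types were summed per library. The 7 erythroid genes summed to 1.24 to 7690.4 CPM in KO Ly6Clo, 410.1 to 3383 CPM in WT Ly6Clo and 138 to 235 CPM in WT Ly6Chi, with the highest value of each Ly6Clo genotype in its deepest library. The 7 neutrophil genes summed to 2.02 to 31.7, 2.74 to 5.98 and 263 to 677 CPM in the same order. S100a8, S100a9, Camp and Ngp were lower in WT Ly6Clo than WT Ly6Chi by edgeR's test, Ngp was at 0 in every WT Ly6Clo library, and Ly6g, which marks mature neutrophils, was near 0 in all groups. Of the 7 neutrophil genes, 2 had positive fold changes in that comparison, 1 of them without overlap, and neither was called. B cell genes summed to 141 to 551, 488 to 703 and 403 to 611 CPM. All 15 cell-cycle genes listed had positive fold changes in KO Ly6Clo against WT Ly6Clo (median log2 1.003, none called), with sums of 391 to 1412 CPM in KO Ly6Clo and 437 to 686 CPM in WT Ly6Clo. Taking haemoglobin and mitochondrially encoded genes out of the total left the ribosomal share at 1.04, 0.818 and 1.06% in KO Ly6Clo, 0.875, 0.636 and 0.914% in WT Ly6Clo and 1.43, 1.21 and 1.12% in WT Ly6Chi. The part of the other cell types in the ribosomal differences was not tested.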

How the data were processed

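RNA from sorted splenic monocytes (10 ng, 12 to 15 PCR cycles) was sequenced as 150-base paired reads, per the labels' protocols. The deposited tables hold, per the file headers, counts, CPM, FPKM and TPM per gene made by the authors, of which FPKM was not used. The submitters' processing notes name STAR 2.5.1a, featureCounts 1.4.6-p5, Salmon 0.8.2 and GRCm38 (mm10) without their roles. The sources used here do not give how shared reads and strand were handled.

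Counts were tested with edgeR 4.0.16 (quasi-likelihood, filterByExpr with a minimum count of 10, TMM, R 4.3.3), the 9 libraries in 1 fit with a term for each group and Benjamini-Hochberg adjustment over 18341 genes. A gene was called at an adjusted p under 0.05. DESeq2 1.42.0 and limma-voom (limma 3.58.1) were alternatives, and the fit was tested on simulated data. CPM in the text were recomputed on TMM-scaled totals, and TPM are the deposited ones. At 48.1 M counts or more (M as in CPM), counting error matters mainly for sparsely counted members such as Rpl24. Replicates of a group differed beyond sampling noise, so none was counted as a duplicate.

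Named members were every called member (10 or fewer), the 4 largest and 4 smallest log2 fold changes per comparison, the 6 highest and 4 lowest by TPM, the stalk genes and Rpsa, paralog pairs, members at the count threshold and those with the largest differences in share. From the lists of other genes, called genes or the 2 highest by CPM were named, and others beyond these were picked after their values were seen. The members and all lists were chosen with earlier results of these data known, so they have no set test. Values of some genes that these rules name are not reported here.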

Additional observations from a re-analysis of the deposited data

How the results depend on the processing

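The direction of the members' median held in all 20 alternatives of each comparison. Leaving out 1 library gave medians of 0.10 to 0.31 for KO Ly6Clo against WT Ly6Clo, -0.66 to -0.45 for WT Ly6Clo against WT Ly6Chi and -0.41 to -0.28 for KO Ly6Clo against WT Ly6Chi. Without scaling beyond the total, the median of all genes moved to 0.13 and -0.12 in the first and second comparison and that of the members to 0.32 and -0.65. The number of members called was less stable. In WT Ly6Clo against WT Ly6Chi it was 2 with no filter on low counts, 30 by DESeq2, 4 with the run of library numbers as a term, 0 without the 2 deepest libraries and 0 to 6 when 1 library was left out. In KO Ly6Clo against WT Ly6Chi it was 0 with no filter, 0 with the groups compared fitted alone, 3 with a filter of 1 CPM in 3 libraries, 3 by limma-voom, 11 by DESeq2, 0 without the 2 deepest libraries and 0 to 2 when 1 library was left out. It was 0 in every alternative between the genotypes. Leaving out both deepest libraries was chosen after seeing the data. As a share of TPM in place of counts, the summed difference was 0.322 percentage points for KO Ly6Clo against WT Ly6Clo and -0.664 for WT Ly6Clo against WT Ly6Chi, where the shares of counts differed by 0.164 and -0.444. The cause of these shifts was not tested.

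With the replicate number as a block, 14 members were called in WT Ly6Clo against WT Ly6Chi, 3 in KO Ly6Clo against WT Ly6Chi and 0 between the genotypes. Same-numbered libraries deviated together to unequal degrees (correlations of 0.0002 to 0.256, all positive), and the main fit did not pair them. Immediate early and heat shock genes summed to 1698, 2384 and 1589 CPM in replicate 1 of KO Ly6Clo, WT Ly6Clo and WT Ly6Chi. Every other library had 10123 to 22252 CPM of them. Whether the replicate numbers mark a shared batch was not tested. Best with their own number correlated 5 of 6 libraries between the genotypes, 2 of 6 between the WT subsets and 4 of 6 between KO Ly6Clo and WT Ly6Chi. Signs changed for members near 0 or sparsely counted. Rps10 in KO Ly6Clo against WT Ly6Clo ran from -1.11 to 0.04 when 1 library was left out, with 0.040 without WT Ly6Clo replicate 2, and was 0.24 without the 2 deepest, when Rpl7l1 was 0.024. In KO Ly6Clo against WT Ly6Chi, Rpl5 ran from -0.049 to 0.15 (-0.0060 without WT Ly6Chi replicate 3) and Rps19 from -0.013 to 0.15, the lowest of each without KO Ly6Clo replicate 3.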
